A study of Rattus norvegicus with 36 samples.

Results

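The change of the control mammary gland between the first day after a saline injection and 30 d later was compared between rats of the strains Cop and F344. The 18 control arrays, of 36 in the series, were used: all arrays whose titles name a control, 3 for each strain at 6 h, 1 d and 30 d. Controls received the saline vehicle, and the other 18 arrays came from rats given N-nitrosomethylurea (NMU), an alkylating mammary carcinogen. The labels give the treated rats an age of 55 days, collection times are counted from treatment, and strain is the only labelled difference between matched groups. Cop (Copenhagen) rats are known as resistant and F344 (Fischer) rats as susceptible to mammary tumours induced by such carcinogens. The RNA is of whole gland, and 3 arrays called biological replicates make a group. The labels do not say whether each replicate is 1 animal, give no sex, time of day or batch, and the p-values measure the spread between these arrays.

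The young adult gland is a branching epithelial tree inside a fat pad. Its ducts have an inner luminal layer, from which milk-secreting cells arise, and an outer basal layer of contractile cells. Both layers divide and grow with ovarian cycles under estrogen, progesterone and prolactin, and the fat pad holds adipocytes, vessels, fibroblasts, lymphoid tissue and, at its edge, muscle of the body wall and skin. In RNA from a whole gland, fewer cells of a type and less RNA per cell cannot be told apart.

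Values are the deposited log2 intensities of probe sets, on which a difference of 1 is a factor of 2. For each strain the change over time is its 30 d mean minus the mean of its 6 h and 1 d groups, here called the early times. The strain difference is the change in Cop minus the change in F344. A positive strain difference means that a gene rose more, or fell less, in Cop. Any offset between the strains that is the same at every time on the log2 scale cancels in it. A probe that binds 1 strain's sequence less well need not give so even an offset, and this was not tested. A gene was called at an adjusted p under 0.05 in limma, adjusted over all 20051 probe sets tested.

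Array medians lay between 5.67 and 5.73. The median standard deviation within a group was between 0.138 (F344, 1 d) and 0.224 (Cop, 30 d). The closest pair of all arrays was replicates 1 and 2 of the F344 control group at 1 d, whose root mean square difference was 0.161, with 0.230 for the next pair. With this pair averaged and counted as 1 array, 884 probe sets were called for the strain difference instead of 1179. F344 control replicate 2 at 30 d stood apart from the other 2 arrays of its group in the muscle, cell cycle and lymphocyte lists, and results that rest on it are given without it.

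F344 glands moved far more than Cop glands between the early times and 30 d. In F344, 3496 of 11305 genes (30.9%) changed, 1751 (15.5%) upward and 1745 (15.4%) downward. In Cop, 814 genes (7.2%) changed, 186 (1.65%) upward and 628 (5.56%) downward. The strain difference itself was called for 798 genes (7.06%), positive for 427 (3.78%) and negative for 371 (3.28%). Over all genes the median strain difference was -0.08. On probe sets, 1179 of 20051 (5.88%) were called for the strain difference, 1266 (6.31%) for the Cop change and 5310 (26.5%) for the F344 change. Of the 1179, 655 were positive and 524 negative, a split that moved with single arrays. Without F344 30 d replicate 1, 777 were called, 529 positive and 248 negative, and without Cop 30 d replicate 3 there were 558 positive and 719 negative. Negative calls were also the more numerous without F344 30 d replicate 2 (598 positive and 674 negative) and with the spread from all 36 arrays (506 and 559). Against 1 d alone 549 were positive and 264 negative.

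Most of the called genes moved in F344 and were not called in Cop. Of the 427 genes with a positive strain difference, 325 (76.1%) fell in F344 and were not called in Cop, and 81 (19%) fell in both strains. Of the 371 genes with a negative strain difference, 330 (88.9%) rose in F344 and were not called in Cop, and 11 rose in both. Cop alone was called for 13 genes of positive and 14 genes of negative difference. The strains were closer at 30 d than early for 652 of the 798 called genes (81.7%), against 6851 of all 11305 (60.6%). For the positive genes the median gap, Cop minus F344, was -1.09 early and 0.13 at 30 d. For the negative genes it was 0.50 early and -0.34 at 30 d, so the median changed side. Taking either early time alone as the reference left the sign of the strain difference the same for all 798 genes, of which 506 were called against 6 h alone, 460 against 1 d alone and 289 against each of them. Like signs were favoured beforehand, since the 798 genes were called on the mean of both references with the same 30 d arrays.

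**Figure D1:**
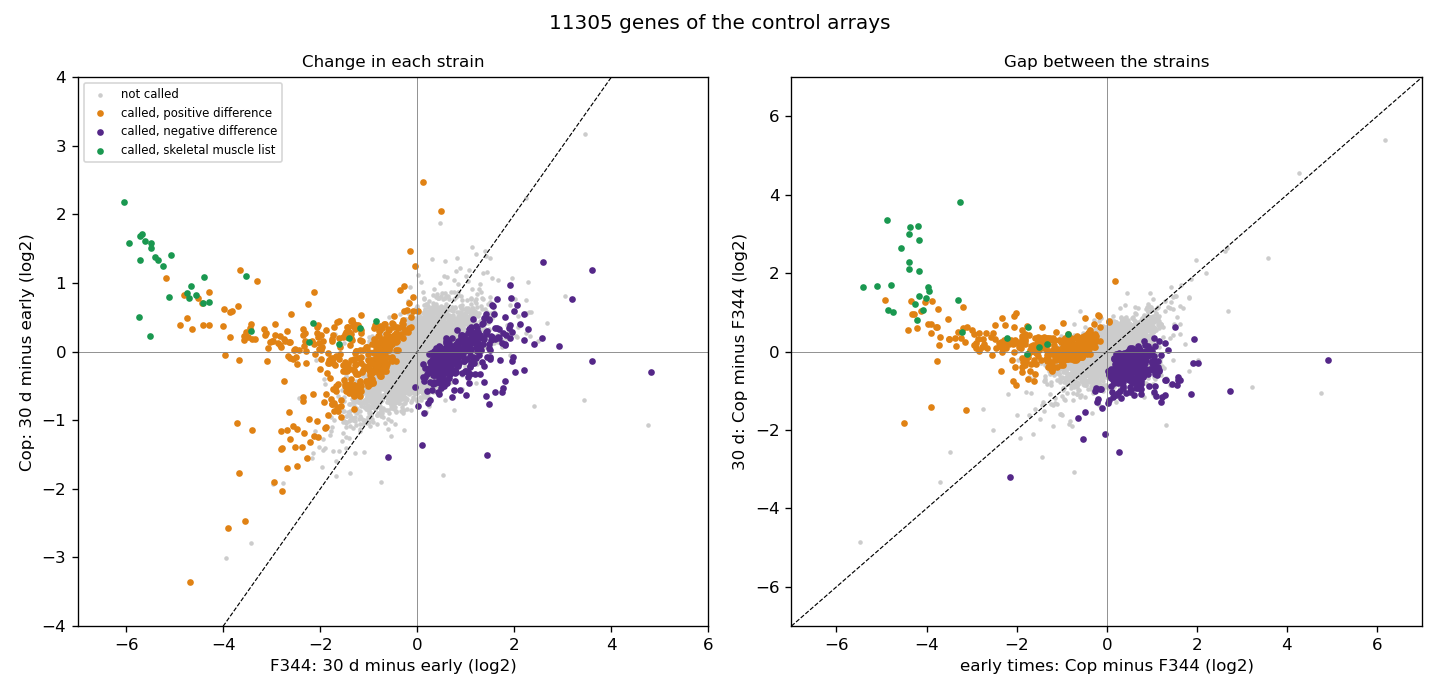
Left, change from the early times to 30 d in F344 (horizontal axis) and Cop (vertical axis), in log2 units, for 11305 genes; right, the gap between strains, Cop minus F344, at the early times (horizontal) and at 30 d (vertical). Points are genes, coloured where the strain difference was called, and the dashed line marks equal values; called genes spread along the F344 axis on the left, and on the right the 427 positive ones have a median gap of 0.13 at 30 d, with most muscle genes above it.

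Skeletal muscle genes had the largest strain differences. Of 31 measured genes of contractile fibres and their energy supply, 30 were called positive, against 3.78% of all genes, and the list's median strain difference was 5.61. All of those 30 fell in F344, with a list median of -4.76, and none was called in Cop by limma, where the median was 0.85 and 2 of the 31 genes had an unadjusted p under 0.05. The gap between the strains over the list turned from a median of -4.17 early to 1.43 at 30 d. For 28 of the 31 genes (90.3%) the 6 early F344 arrays lay above all 12 other control arrays, which held for 5.71% of all genes.

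Promoters of the muscle genes are shown because their list had the largest median strain difference of the 34 lists. Of the 31 genes, 26 had a promoter in the RefSeq table (rat build GRCr8). In the 250 bases before the start, a CArG box, bound by serum response factor, or a MEF2 site, bound by the muscle factors of that name, occurred on either strand in 7 of the 26 (26.9%), against 4.54% of all promoters. Separately, a CArG box was found in 11.5% of them against 1.5% of all promoters, and a MEF2 site in 19.2% against 3.07%. The E box CANNTG, the core bound by the MyoD family, was found in 88.5% against 65.2%. This share was not particular to muscle: it was 84.6% for the luminal and basal lists together, and 51.7% for the G2 and M list. Among promoters of all genes called positive, 2.86% had a CArG box and 6.0% a MEF2 site, and among those called negative 2.4% and 1.37%. A match describes these letters only, and binding was not measured. Shown 5′ to 3′ on each gene's own strand, with CArG boxes and MEF2 sites in capitals, are Acta1 (chr19:68784195-68784444, minus strand, a CArG box), Myh4 (chr10:52421898-52422147, plus strand, a MEF2 site and then a CArG box) and Myoz1 (chr15:3693363-3693612, plus strand, a MEF2 site).
Acta1 promoter: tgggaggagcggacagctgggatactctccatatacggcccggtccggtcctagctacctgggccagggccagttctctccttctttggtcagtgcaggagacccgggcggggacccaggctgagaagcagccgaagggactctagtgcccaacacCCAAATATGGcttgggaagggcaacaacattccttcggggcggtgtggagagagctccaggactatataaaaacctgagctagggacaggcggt
Myh4 promoter: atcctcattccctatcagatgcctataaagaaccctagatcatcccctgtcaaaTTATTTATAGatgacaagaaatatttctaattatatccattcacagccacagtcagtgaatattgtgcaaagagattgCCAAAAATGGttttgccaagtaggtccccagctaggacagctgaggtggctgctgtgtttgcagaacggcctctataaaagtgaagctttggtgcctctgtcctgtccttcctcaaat
Myoz1 promoter: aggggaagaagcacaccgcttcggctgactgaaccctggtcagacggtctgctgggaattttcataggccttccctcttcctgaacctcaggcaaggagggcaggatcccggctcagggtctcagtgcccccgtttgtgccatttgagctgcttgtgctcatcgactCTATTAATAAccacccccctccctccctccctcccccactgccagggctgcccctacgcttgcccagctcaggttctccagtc

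Myot, which encodes myotilin of the sarcomere's Z disc, read 9.24, 9.25 and 10.38 in the F344 arrays at 6 h and 8.98, 8.89 and 10.09 at 1 d. At 30 d F344 read 3.32, 5.12 and 3.41. Cop read 5.29, 3.84 and 4.96 at 6 h, 4.61, 5.69 and 3.94 at 1 d, and 4.78, 5.15 and 4.94 at 30 d. All 6 early F344 arrays were thus more than 3 units above every other array, and 30 d F344 overlapped Cop. The resulting strain difference was 5.75 (SE 0.64, adjusted p = 7.09e-05).

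Casq1, the calcium store of the fibre, fell by 5.40 in F344 and had a strain difference of 6.78 (SE 0.91, adjusted p = 0.000583). Ckm, muscle creatine kinase, read 12.59 to 13.41 over the early F344 arrays, then 4.84, 10.30 and 6.79 at 30 d. In Cop it read between 5.97 and 9.94 early and 9.71, 10.79 and 10.42 at 30 d. This gave a strain difference of 7.39 (SE 1.54, adjusted p = 0.0135). Replicate 2 of the F344 30 d group was the high one there, as for Acta1, skeletal muscle actin, which read 4.29, 11.63 and 8.05. The spread between arrays is therefore large at 30 d, and Acta1 (strain difference 7.08, adjusted p = 0.0308) lost its call in 7 of 18 fits that left out 1 array. Neb, encoding nebulin of the thin filament, and Ryr1, the calcium release channel, had strain differences of 5.03 and 3.72 and kept their calls in all 18.

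Isoforms of fast and slow fibres were chosen in different ways. The fast ones listed next were named because they were among the largest called positive differences. The slow ones and Myh1 were looked up after their values were seen. The fast set was thus picked for large values and the slow set was not, so the sizes below cannot show whether fibre types differed. Of the fast set, Myl11 stood at 8.23, Tnnc2 at 7.53, Myl1 at 7.40, Tnni2 at 7.22 and Tnnt3 at 6.49. Of the slow set, Myl2 stood at 2.58, Tnnc1 at 1.71, Myh7 at 1.61, Myl3 at 1.51 and Tnni1 at 1.295. These are differences, not levels, and the gap between the sets was not tested. The slow set was dim: all of it dropped out under a filter at the 60th percentile. Myh7 passed the filter in use in 15 of 18 leave-out fits. Its call was lost with a floor at the 20th percentile, with the spread from all 36 arrays and against 1 d alone. The part of low signal in the smaller differences was not tested. The 1 muscle gene that was not called, Myh1, is a fast isoform too, at 0.50 (adjusted p = 0.095).

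A list score gives 1 value for each array: each gene's value minus that gene's mean over the control arrays, averaged over the list. The muscle score of F344 was 1.98, 1.85 and 2.98 at 6 h, 2.25, 2.20 and 2.94 at 1 d, and -3.04, -0.25 and -2.34 at 30 d. That of Cop was -0.74, -2.57 and -0.75 at 6 h, -0.88, -0.50 and -2.16 at 1 d, and -0.71, -0.09 and -0.16 at 30 d. Each early F344 array thus scored above every other control array. Muscle RNA moves with the contrast in every gene group below, and its part in those results was not tested.

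**Figure D2:**
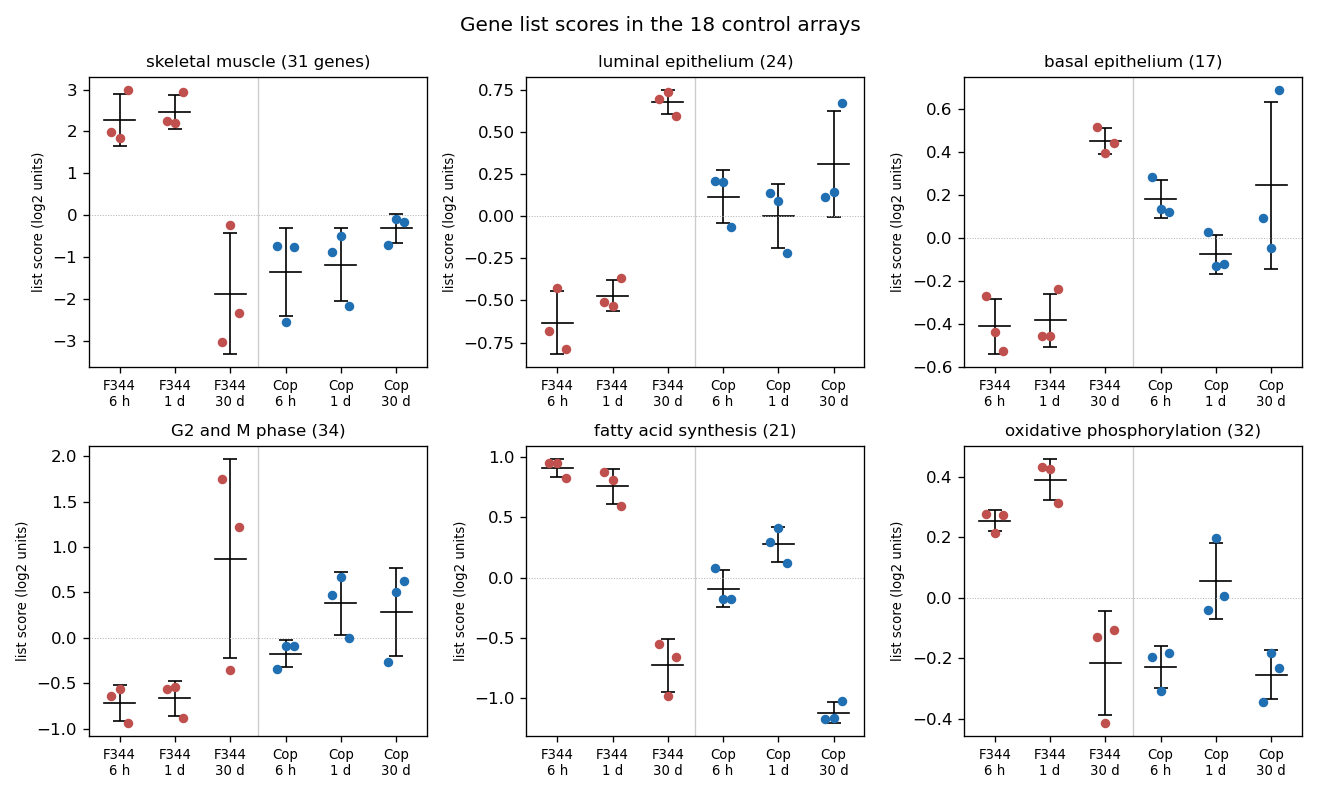
Scores of 6 gene lists (vertical axis, log2 units, mean deviation of the list's genes) in each control group (horizontal axis, strain and time). Points are arrays, red for F344 and blue for Cop, bars are the mean of 3 arrays and whiskers 1 SD; in F344 muscle, fatty acid and oxidative phosphorylation scores drop at 30 d and both epithelial scores rise, while the G2 and M score of 1 F344 array at 30 d stays at -0.35.

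Epithelial genes rose in F344 and were mostly not called in Cop. Of 24 luminal markers, 12 were called with a negative strain difference and none with a positive one, against 3.28% and 3.78% of all genes. The list's median was -0.90, with 1.20 in F344, where 20 genes rose, and 0.26 in Cop, where 2 rose. Of 17 basal markers, 6 were called negative, with a list median of -0.69, and 13 rose in F344. The counts moved between 6 and 16 for luminal and between 2 and 10 for basal genes when single arrays were left out; the lowest came without Cop 30 d replicate 1 and without F344 30 d replicate 1, the highest, for both lists, without Cop 30 d replicate 3. With the spread taken from all 36 arrays, and against 1 d alone, 5 luminal genes were called.

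Cd24, a surface protein of luminal cells, read 9.68, 9.98 and 9.46 in F344 at 6 h, 9.63, 9.61 and 9.97 at 1 d, and 11.74, 11.69 and 11.73 at 30 d. In Cop it read 10.74, 11.07 and 10.48, then 10.79, 10.80 and 10.17, and 11.12, 11.19 and 11.51 at 30 d. F344 lay below every Cop array early and above every Cop array at 30 d. Its strain difference was -1.40 (SE 0.22, adjusted p = 0.00101), and it rose in both strains, in Cop by 0.60.

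Ehf, an epithelial ETS factor, rose by 1.83 in F344 and changed by 0.25 in Cop, giving -1.59 (SE 0.22, adjusted p = 0.000419). Elf5, the ETS factor that specifies milk-secreting alveolar cells, rose by 2.21 in F344 and gave -1.66 (adjusted p = 0.0147), a call lost without F344 30 d replicate 1 and without Cop 30 d replicate 1. Prom1, a marker of luminal cells that sense hormones, gave -2.24 and St14, the membrane protease matriptase, -0.97. Areg, the estrogen-induced growth factor amphiregulin, read 5.07 to 7.01 over the early F344 arrays and 8.75 to 10.91 at 30 d, against 8.54 to 9.07 over the early Cop arrays. That gave -3.74 (SE 0.83, adjusted p = 0.0162), with a change of -0.14 in Cop.

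Of the basal keratins, Krt14 rose in F344 from between 8.47 and 8.96 early to 10.50, 10.04 and 10.59 at 30 d, while Cop read 9.02 to 9.96 early and 9.25, 9.69 and 10.25 at 30 d. The difference came to -1.45 (SE 0.27, adjusted p = 0.004). Krt5, its partner in the basal filament network, gave -1.49, a call lost without F344 30 d replicate 1 or Cop 30 d replicate 1, and Tp63, the master regulator of basal cells, gave -1.59. Lamb3, a laminin chain of the basement membrane, gave -0.89, a call lost without either of those arrays or Cop 30 d replicate 2. Krt15 differed at 30 d rather than early: the strain gap was 0.28 early and -2.57 at 30 d, for a strain difference of -2.84 (SE 0.47, adjusted p = 0.00145). F344 rose there to 10.99, 9.45 and 10.92, above all Cop arrays, which read between 7.03 and 8.69.

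The genes of milk secretion showed large but scattered values. Of 19 measured, 4 were called negative and 1 positive, and 13 rose in F344. The count of called genes ran from 3 without F344 30 d replicate 1 to 9 without F344 30 d replicate 2. Mfge8, a milk fat globule protein, rose by 1.42 in F344 and gave -1.16 (SE 0.17, adjusted p = 0.000659). Glycam1, a secreted mucin, gave -1.62 and Olah, the thioesterase that ends medium-chain fatty acids in milk, -1.15, the latter after rising in both strains and with its call lost without F344 30 d replicates 1 or 3 or Cop 30 d replicate 1. Csn2, beta-casein, read 7.49, 10.60 and 4.33 in F344 at 6 h and 13.49, 9.88 and 13.30 at 30 d, against 10.67 to 13.68 over the early Cop arrays. Its strain difference of -5.82 had an SE of 1.89 and was not called (adjusted p = 0.0982). Wap, whey acidic protein, was not called at -4.13 (adjusted p = 0.213), nor Lalba, which modifies the enzyme of lactose synthesis, at -0.58 (adjusted p = 0.196).

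Clca1, a secreted regulator of chloride transport, had the most negative difference of any called gene. It read between 6.12 and 10.25 over the early F344 arrays and 13.25, 11.85 and 13.05 at 30 d. Cop read 12.48 to 13.18 early and 11.81, 12.71 and 13.00 at 30 d, so that every early F344 array lay below all other arrays. The strain difference was -5.12 (SE 0.91, adjusted p = 0.00508).

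Among genes of hormone action, 3 of 20 were called, each negative, or 5 without F344 30 d replicate 1, and against 1 d alone 1. Stat5a, which carries the prolactin signal, rose by 1.19 in F344 and gave -0.91 (SE 0.17, adjusted p = 0.00314). Wnt4, the progesterone-induced signal for side branching, gave -1.41 (SE 0.27, adjusted p = 0.004). The third was Areg. The receptors were not called: Esr1 stood at -0.23, Pgr at -0.70 and Prlr at -0.65 (adjusted p = 0.749, 0.675 and 0.234), although Prlr rose by 1.10 in F344. Of the other negative genes, Sox4, a factor of progenitor cells, gave -1.42, Stra6, the retinol uptake receptor, -2.23, Aqp3, a water and glycerol channel, -2.41, and C3, complement component 3, -2.96. Of the 5 Stra6 probe sets tested, 3 were called for the strain difference. Tnc, the matrix protein of growing stroma, gave -2.33.

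Genes of cell division rose in F344, but how many differed between strains moved with single arrays and with the settings. Of 34 genes of G2 and M phase, 31 rose in F344 and none was called in Cop by limma, where 0 had an unadjusted p under 0.05. The list's median strain difference was -1.46, the lowest of all 34 lists, and all 34 genes were negative, yet only 5 were called (14.7%, against 3.28% of all genes). The score of F344 was between -0.94 and -0.54 over the early arrays and 1.75, -0.35 and 1.22 at 30 d. Without replicate 2, the low array, 31 of the 34 were called, and without F344 6 h replicate 3 only 1. With the spread from all 36 arrays 14 were called, with arrays weighted by time 3, against 1 d alone 3 and against 6 h alone 0.

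Kif15, a spindle motor, read 4.03 to 4.59 over the early F344 arrays and 7.33, 5.19 and 6.58 at 30 d, against 6.09 to 6.78 in early Cop and 5.68, 6.13 and 6.43 in Cop at 30 d. This came to -2.31 (SE 0.45, adjusted p = 0.00481) and was called in all 18 leave-out fits. Ccna2, cyclin A2, gave -2.48 (SE 0.57, adjusted p = 0.0155) and was also called in all 18. Mki67, the Ki-67 antigen, at -2.28, Nusap1, a spindle protein, at -2.37 and Cks2, a kinase subunit, at -1.72 were called in 6, 3 and 2 of them. Over the early F344 arrays Kif15 and Ccna2, the latter at 3.88 to 4.15, lay below every array median. The part of low signal in their differences was not tested. Of the 2 Nusap1 probe sets tested, 1 was called. Top2a, topoisomerase II alpha, was not called at -1.84 (adjusted p = 0.067), nor Pcna, the replication clamp, at -0.62 (adjusted p = 0.129). Of 30 S phase genes, 16 rose in F344 and 1 was called for the strain difference, or 8 without F344 30 d replicate 2.

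Genes of fatty acid synthesis fell in both strains, and a part of them fell further in F344. Of 21 genes of fatty acid synthesis, 16 fell in F344 and 17 in Cop, with medians of -1.47 and -1.03. Of these, 8 were called with a positive strain difference (38.1%, against 3.78% of all genes) and none with a negative one. The count ran from 4 without F344 1 d replicate 1 to 10 without F344 1 d replicate 3, was 2 against 1 d alone and was 3 with the spread from all 36 arrays. In 13 of the 21 the early F344 arrays lay above all other control arrays.

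Acss2, which makes acetyl-CoA from acetate, read 10.54, 10.48 and 10.44 in F344 at 6 h, 10.46, 10.40 and 10.20 at 1 d, and 8.18, 8.28 and 8.16 at 30 d. In Cop it read 9.36 to 9.88 early and 8.48, 7.93 and 8.45 at 30 d. The strains did not overlap early and overlapped at 30 d. It fell by 2.21 in F344 and 1.32 in Cop, for a strain difference of 0.89 (SE 0.17, adjusted p = 0.00382). Slc25a1, the citrate exporter, gave 1.04, Tkt, transketolase, 0.85, and Mlxipl, the sugar-sensing factor ChREBP, 0.98. Acaca, which commits acetyl-CoA to fatty acids, gave 0.72, a call kept in 8 of 18 leave-out fits. Fasn, the synthase itself, fell in both strains by 1.47 and 1.04 and was not called for the strain difference at 0.43 (adjusted p = 0.0764). Scd, the desaturase, was not called either, at -0.23. Of 18 genes of sterol synthesis, 13 fell in F344 and 14 in Cop, and 1 was called for the strain difference.

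Of 26 adipocyte genes, 5 were called positive and 1 negative, and 17 fell in F344 against 9 in Cop. The 6 calls were 4 without F344 6 h replicate 3, 10 without Cop 30 d replicate 2 and 3 with the spread from all 36 arrays. Slc2a4, the insulin-responsive glucose carrier GLUT4 of fat and muscle, read 9.93 to 10.70 over the early F344 arrays and 7.85, 7.48 and 7.63 at 30 d. Cop read 8.09, 8.34 and 8.67 at 6 h, 9.14, 9.56 and 9.15 at 1 d, and 7.89, 7.32 and 7.81 at 30 d, so the strains were apart early and alike in range at 30 d. Its strain difference was 1.65 (SE 0.24, adjusted p = 0.000583). Rbp4, a retinol carrier, and Aqp7, the glycerol channel, both gave 1.25, and neither was called in Cop. Pck1, which supplies glycerol for fat storage, went the other way: it rose by 1.77 in F344 and gave -2.30 (SE 0.49, adjusted p = 0.00948). The defining markers were not called: Plin1, the coat of the fat droplet, stood at 0.37 (adjusted p = 0.387) and Adipoq, adiponectin, at 0.27 (adjusted p = 0.335).

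All 32 measured genes of oxidative phosphorylation had a positive strain difference, of which 7 were called (21.9%) and the median was 0.35. In F344, 28 of the 32 fell, and in Cop 8. The strain gap over the list was -0.40 early and -0.04 at 30 d. Ndufb3 of complex I gave 0.63 (SE 0.11, adjusted p = 0.00205), Sdhd of complex II 0.57, Uqcrfs1 of complex III 0.43 and Ndufs1 of complex I 0.52, whose call was lost without F344 30 d replicate 2 or Cop 30 d replicate 3. The count of 7 was 3 without F344 30 d replicate 2, 3 with arrays weighted by time and 3 against 1 d alone.

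**Figure D3:**
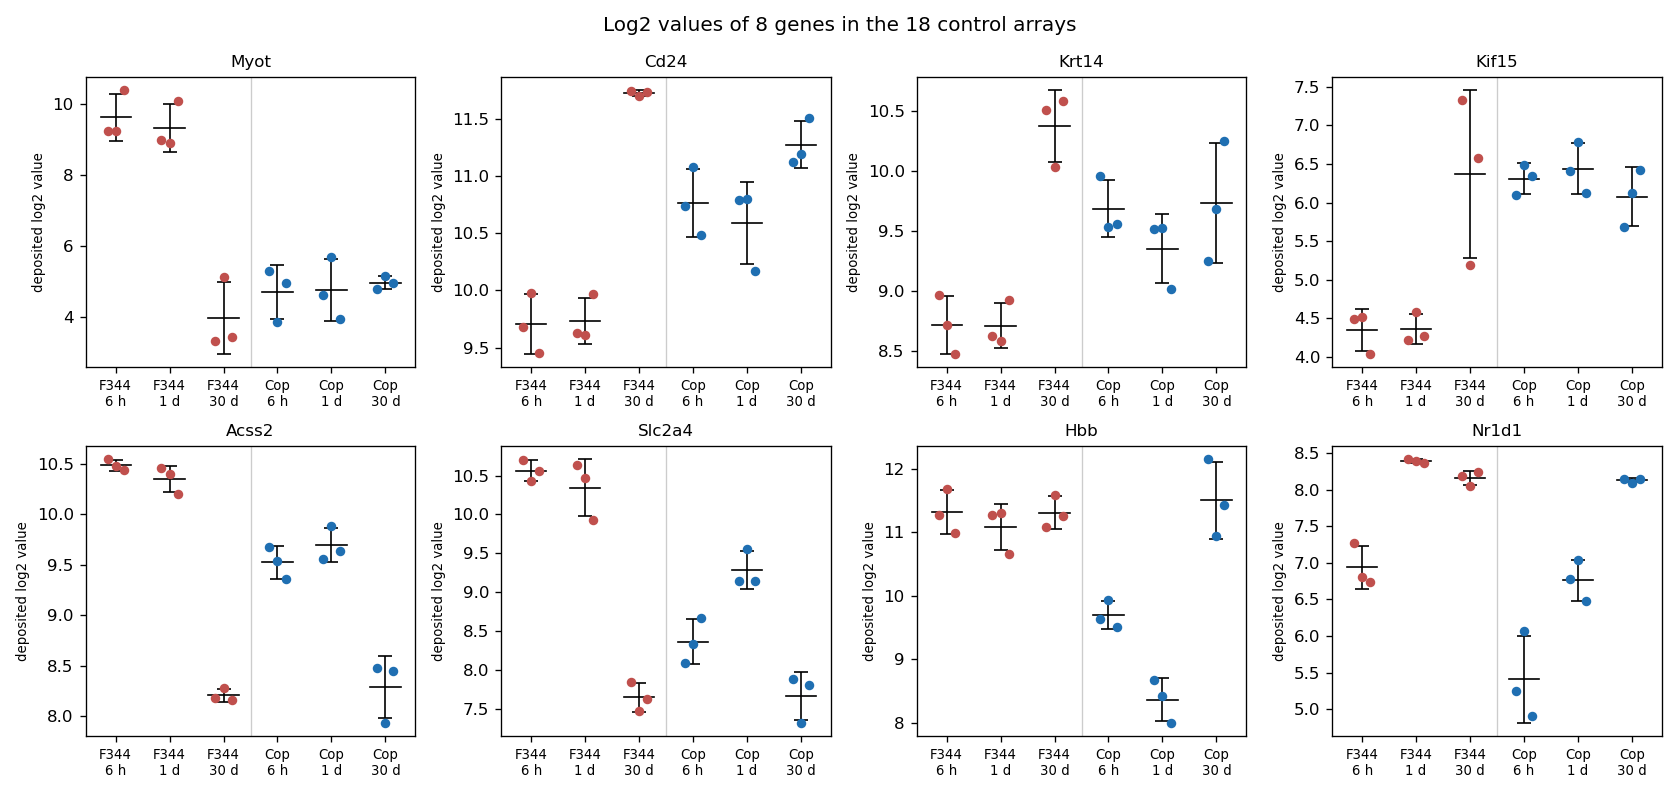
Deposited log2 values (vertical axis) of 8 genes in each control group (horizontal axis, strain and time). Points are arrays, red for F344 and blue for Cop, bars are the mean of 3 arrays and whiskers 1 SD; Myot, Acss2 and Slc2a4 start high in F344, Cd24, Krt14 and Kif15 start low there, and Hbb and Nr1d1 start low in Cop.

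A smaller set of called genes changed in Cop and was not called in F344. Of 35 matrix genes, 7 were called positive (20%, against 3.78% of all genes) and 1 negative (2.86%, against 3.28%). In Cop 8 of the 35 rose and none fell, and in F344 9 rose and 6 fell. Against 1 d alone 3 were called, each positive. Col1a1, a chain of collagen I, read 12.14, 11.61 and 12.18 in Cop at 6 h, 12.51, 12.50 and 12.58 at 1 d, and 12.70, 12.90 and 13.01 at 30 d. F344 read 12.76 to 13.17 early and 12.84, 12.84 and 12.68 at 30 d. Cop thus began below F344 and reached its range. The strain difference was 0.82 (SE 0.16, adjusted p = 0.0058). Fbn1, fibrillin 1 of elastic fibres, rose by 0.71 in Cop and gave 0.89 (adjusted p = 0.00251). Lox, which cross-links collagen, rose by 0.96 in Cop and gave 1.23; it was looked up after its values were seen, as were Hbb, Alas2, Nr1d1, Cry1, Sox4, Acaca and Hspa1a. Col5a1, of collagen V, was called in opposite directions, up by 0.46 in Cop and down by 0.30 in F344. Col15a1, of basement membranes, was different, since it fell by 0.94 in F344 and was not called in Cop (strain difference 0.77).

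Spp1, osteopontin, a secreted phosphoprotein of milk and of macrophages, rose in Cop only by call. It read 7.03, 7.56 and 8.12 in Cop at 30 d, above every other control array. The strain difference was 1.62 (SE 0.28, adjusted p = 0.00183).

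Hbb, beta-globin of red cells, whose probe set may also bind near-identical globin copies, read 9.64, 9.94 and 9.51 in Cop at 6 h, 8.67, 8.43 and 7.99 at 1 d, and 12.15, 10.94 and 11.43 at 30 d. F344 stayed between 10.66 and 11.69 at all times. The strain difference was 2.36 (SE 0.33, adjusted p = 0.000358). Alas2, which starts haem synthesis in red cell precursors, gave 1.297 (adjusted p = 0.0318) and kept its call in 11 of 18 leave-out fits. These were the only called genes of 9 measured in the globin and haem list, a count that was 1 without F344 1 d replicate 1 and 4 without Cop 30 d replicate 2.

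Of 16 clock genes, Nr1d1, the repressor REV-ERB alpha, was called positive and Cry1 negative. Nr1d1 read 5.25, 6.07 and 4.90 in Cop at 6 h, 6.77, 7.03 and 6.48 at 1 d, and 8.14, 8.10 and 8.15 at 30 d. F344 read 7.27, 6.81 and 6.73, then 8.41, 8.39 and 8.37, and 8.19, 8.05 and 8.24 at 30 d. The strain difference was 1.55 (SE 0.27, adjusted p = 0.00232), and the strains were apart at 6 h and 1 d and close at 30 d. Per2 (-0.87, adjusted p = 0.0534) and Dbp (0.49, adjusted p = 0.301), which cycle through the day, were not called. Hspa1a, an inducible heat shock chaperone, was 9.27, 9.84 and 9.77 in Cop at 6 h, above all other arrays, and gave -1.46 (SE 0.29, adjusted p = 0.00621). Against 1 d alone its strain difference was no longer called, at -0.42. Sgk1, a kinase induced by glucocorticoids, gave -1.05 (adjusted p = 0.0176), and 3 of 18 genes of that list were called, or 1 without F344 1 d replicate 1 and 5 without F344 30 d replicate 2. Of 26 genes of the endoplasmic reticulum, 4 were called negative, among them Pdia4, a folding enzyme, at -0.68 and Xbp1, a factor of secretory cells, at -0.51, a count that ran from 2 without F344 1 d replicate 1 to 6 without Cop 1 d replicate 1.

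The remaining lists had few calls, to be read against 3.78% of all genes called positive and 3.28% negative. Of 23 Wnt pathway genes 4 were called negative and 1 positive, and of 26 ribosome biogenesis genes 2 were called negative, with all 26 below 0 and a median of -0.36. Positive calls were made for 2 of 9 brown fat genes and 2 of 13 imprinted genes, and negative calls for 2 of 11 Schwann cell, 2 of 20 immediate early and 1 of 19 DNA repair genes. The heat shock, amino acid stress and p53 target lists had 1 call each way, of 14, 22 and 20 genes. The Wnt count was 1 without F344 1 d replicate 2, and the other counts here moved by at most 2 genes when single arrays were left out.

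Some called genes named above depended on the reference. Against 1 d alone the calls of Acta1, Elf5, Areg, Tp63, Lamb3, Wnt4, Olah, Nusap1, Cks2, Slc25a1, Tkt, Acaca, Pck1, Ndufs1, Col1a1, Col15a1, Alas2, Sgk1, Hspa1a, Aqp3, Pdia4 and Xbp1 were lost. Against 6 h alone those of Acta1, Krt5, Mki67, Ccna2, Nusap1, Cks2, Aqp7, Uqcrfs1, Lox, Tnc and Alas2 were lost. With the spread from all 36 arrays those of Elf5, Krt5, Wnt4, Glycam1, Olah, Acaca, Mlxipl, Pck1, Col5a1 and Aqp3 were lost. Myh7 and Tnni1 also lost theirs against 1 d alone, Cry1 against 6 h alone and Myh7 with the spread from all 36 arrays. Each of the genes listed here kept its direction under these settings, which share arrays with the main fit.

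Nearly all immune and vessel markers missed the threshold. No gene was called by limma among 17 B cell, 21 macrophage, 20 endothelial, 15 inflammatory, 27 interferon-induced, 9 mast cell or 15 antigen-presentation genes, and 12 of these 124 had an unadjusted p under 0.05, against 23% of all genes. Of 23 T cell genes 1 was called, negative, though only 1 of the 23 had a positive strain difference and the list's median was -0.45. Cd3g of the T cell receptor stood at -0.47 (SE 0.37), Ms4a1 of B cells at -0.21 (SE 0.54), Cd68 of macrophages at 0.18 (SE 0.25) and Pecam1 of endothelium at 0.24 (SE 0.17). These errors leave room for differences of moderate size. The B cell score was 0.82 in F344 30 d replicate 2 against -0.64 and -0.33 in the other 2 arrays of that group, so this array differed from its group in lymphocyte RNA as well. Krt18 of luminal cells, called in F344 with a rise of 0.98, was not called for the strain difference at -0.57 (adjusted p = 0.21).

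The same contrast was then taken over the 18 NMU arrays, which share no array with the controls. Fewer genes passed there, 112 of 11305 (0.991%), 57 positive (0.504%) and 55 negative (0.487%), and these glands differ from the controls by the carcinogen. Of the 427 genes positive in controls, 396 (92.7%) were positive in NMU arrays and 33 were called so. Of the 371 negative genes, 346 (93.3%) were negative and 28 were called so. None was called by limma in the opposite direction, and over all genes 67.3% had the same sign in both sets. Cop 30 d NMU replicate 3 had a luminal score of -1.32, the lowest of the 18. Without it the shares of the same sign were 89.9%, 85.2% and 60.7%.

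The muscle difference did not come back in the NMU arrays. None of the 31 muscle genes was called there by limma, 0 had an unadjusted p under 0.05, and the list's median was 0.39, against 5.61 in controls. Their muscle scores varied within groups, as from -1.77 to 2.56 in F344 at 1 d and from -2.74 to 1.504 in Cop at 30 d. F344 NMU arrays at 30 d read 1.54, 1.15 and -0.14, not below the early ones as controls were. The difference of the contrast between the treatments was not tested.

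The medians of the epithelial, cell division and fat lists kept the direction of the controls. The median in NMU arrays was -1.08 for luminal, -0.63 for basal and -0.79 for G2 and M genes. It was 1.00 for fatty acid synthesis, 0.52 for adipocyte and 0.27 for oxidative phosphorylation genes. In controls these were 0.29, 0.36 and 0.35, so the sizes were not alike. The G2 and M scores of the NMU arrays did not move as in controls. Cop scored 0.56, 1.16 and 1.06 at 6 h, -0.84, -0.87 and -0.74 at 1 d, and -0.76, -0.62 and -0.42 at 30 d. F344 scored -1.02, -0.79 and -0.90 at 6 h, -0.12, -0.38 and -0.54 at 1 d, and -0.78, -0.21 and -0.60 at 30 d. The high Cop arrays at 6 h thus enter the negative median, and the NMU contrast against 1 d alone was not fitted. Without Cop 30 d NMU replicate 3 the luminal median was -0.48. Genes called with the same sign in both sets included St14 (-0.84, adjusted p = 0.0206), Sox4 (-1.59, adjusted p = 0.014), Stra6 (-2.23, adjusted p = 0.00804), Slc2a4 (1.55, adjusted p = 0.0351), Acss2 (1.04, adjusted p = 0.024), Acaca (1.97, adjusted p = 0.00384), Tkt (1.31, adjusted p = 0.038), Ndufb3 (0.75, adjusted p = 0.00539) and Nr1d1 (1.25, adjusted p = 0.0169). The matrix list had the opposite sign, -0.30 against 0.16, and Col1a1 and Lox stood at -0.24 and -0.42, neither called.

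**Figure D4:**
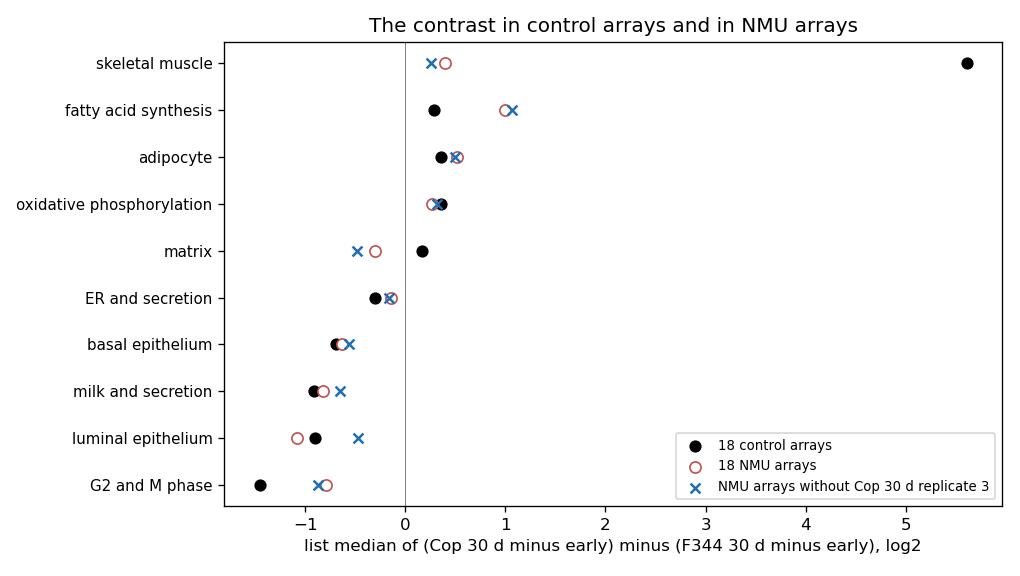
Median strain difference (horizontal axis, log2 units) of 10 gene lists (vertical axis) in the 18 control arrays (black), in the 18 NMU arrays (open red) and in NMU arrays without Cop 30 d replicate 3 (blue crosses). Most lists keep their side of 0 in both sets, muscle drops from 5.61 to 0.39 and the matrix list changes side.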

How the data were processed

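The values are log2 expression per probe set of a rat Affymetrix array, deposited by the authors. Per the labels' protocols, a modified Qiagen RNeasy Maxi procedure gave the RNA, and 1 ug of it went into biotin-labelled cRNA. The submitters' processing notes name GCOS, with no version, the summary and normalization of the signals being not given in the sources used here. Values entered as deposited.

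Of 31099 probe sets, 57 manufacturer controls were left out. To be tested, a probe set had to exceed its array's 40th percentile on 3 or more control arrays. Gene names came from the platform annotation through RefSeq's rat gene table: 20826 probe sets carried 1 symbol, 436 several and 9780 none. Each gene takes the value of the probe set whose mean was highest. Group means of the 18 control arrays were fitted with limma 3.58.1 in R 4.3.3 (mean-variance trend, robust empirical Bayes, two-sided), with Benjamini-Hochberg adjustment over 20051 probe sets for each contrast. The script was tested on simulated data. Arrays have no read depth, and 3 for each group limit the precision.

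The members, the 34 lists and the rule for naming genes were chosen with earlier results of these data known. Named were the 15 largest called differences each way, up to 4 called genes of lists with 3 or more, genes called in opposite directions in the strains, a fixed panel of marker genes, and further genes chosen after their values were seen, as said where they are named; the text prints part of them. Lists are described by counts and medians, beside all genes. Alternatives were another spread estimate, normalization, filters, a floor, array weights, single early times, a replicate block and each array left out. Averaging the closest pair of arrays, and the same contrast over the NMU arrays, were added after seeing the data.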

Additional observations from a re-analysis of the deposited data

Results flagged for a closer look

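The strain difference is itself a test of whether 2 groups changed unequally, so its called values among the genes described above are listed. It was called for 1179 probe sets. The genes with a positive value, which rose more or fell less in Cop than in F344, were these, in log2 units: Myl11 (8.23), Tnnc2 (7.53), Myl1 (7.40), Ckm (7.39), Tnni2 (7.22), Acta1 (7.08), Casq1 (6.78), Tnnt3 (6.49), Myot (5.75), Neb (5.03), Ryr1 (3.72), Myl2 (2.58), Hbb (2.36), Tnnc1 (1.71), Slc2a4 (1.65), Spp1 (1.62), Myh7 (1.61), Nr1d1 (1.55), Myl3 (1.51), Alas2 (1.297), Tnni1 (1.295), Aqp7 (1.25), Rbp4 (1.25), Lox (1.23), Slc25a1 (1.04), Mlxipl (0.98), Acss2 (0.89), Fbn1 (0.89), Tkt (0.85), Col1a1 (0.82), Col15a1 (0.77), Col5a1 (0.76), Acaca (0.72), Ndufb3 (0.63), Sdhd (0.57), Ndufs1 (0.52), Uqcrfs1 (0.43).

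The genes with a negative value were these: Xbp1 (-0.51), Pdia4 (-0.68), Lamb3 (-0.89), Stat5a (-0.91), Cry1 (-0.94), St14 (-0.97), Sgk1 (-1.05), Olah (-1.15), Mfge8 (-1.16), Cd24 (-1.40), Wnt4 (-1.41), Sox4 (-1.42), Krt14 (-1.45), Hspa1a (-1.46), Krt5 (-1.49), Tp63 (-1.59), Ehf (-1.59), Glycam1 (-1.62), Elf5 (-1.66), Cks2 (-1.72), Stra6 (-2.23), Prom1 (-2.24), Mki67 (-2.28), Pck1 (-2.30), Kif15 (-2.31), Tnc (-2.33), Nusap1 (-2.37), Aqp3 (-2.41), Ccna2 (-2.48), Krt15 (-2.84), C3 (-2.96), Areg (-3.74), Clca1 (-5.12). Muscle RNA was high in the early F344 arrays that enter all of these values, and its part in them was not tested.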

How the results depend on the processing

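The strain difference was called for 1179 probe sets, and for 785 when arrays were weighted by time. The Cop change was called for 1266, for 747 with those weights and for 830 against 1 d alone. Leaving out each array in turn gave 777 (without F344 30 d replicate 1) to 1335 for the strain difference, 681 to 1391 for the Cop change and 4082 to 5802 for the F344 change. The Cop count fell by over 1.5 times in 3 of these fits: 681 without Cop 30 d replicate 2, 736 without Cop 1 d replicate 2 and 803 without Cop 6 h replicate 1. Of the 798 genes called, 592 were also called with all 36 arrays and 530 with the weights. Dbp changed sign for Cop against 1 d alone, to -0.0153. Of the other values of printed genes under the alternatives, 7474 stayed on their side of the threshold, 260 lost the call and 59 gained it. Same-numbered arrays did not pair: of 15 pairs of groups, none had all 3 correlations of deviations over 0.1. With the replicate number as a block 996 probe sets were called. The cause of these shifts was not tested. Dim probe sets have only their deposited value, with no background measured beside it.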
